A study of Mus musculus with 2 samples.

Results

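The genes described here encode nuclear subunits of the oxidative phosphorylation machinery and some of its assembly and associated factors. They were all protein-coding genes of the GENCODE M21 annotation whose symbol starts with Nduf, Uqcr, Atp5, Cox4, Cox5, Cox6, Cox7 or Cox8, together with Sdha, Sdhb, Sdhc, Sdhd and Cyc1. This gave 94 genes of 21911 protein-coding genes counted by symbol on chromosomes 1 to 19, X and Y, or 95 of 21938 annotated gene entries, because Atp5o has 2 entries. The genes were chosen by a rule on names that used no accessibility value, although earlier results of these data were known. Accessible chromatin was mapped by ATAC-seq, in which a transposase inserts adapters where DNA is open, in activated regulatory T cells. The cells came from male mice, 4 months old. The mice carried Foxp3CreERT2, a tamoxifen-inducible Cre recombinase at the Foxp3 locus, and Rosa26YFP, a fluorescent reporter. The labels name bone marrow hematopoietic cells as the origin of the primary cells. The 2 libraries were technical replicates of 1 biological replicate, they formed the only group, and the peak lists pool them, so no value has a replicate error.

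Oxidative phosphorylation makes ATP in the inner mitochondrial membrane. Complex I takes electrons from NADH and complex II takes them from succinate. Complex III hands them on to cytochrome c, complex IV passes them to oxygen, and complex V uses the resulting proton gradient to make ATP. Most subunits are encoded in the nucleus and are needed in nearly every cell, but several complex IV subunits exist as paralogs used only in certain tissues. Regulatory T cells are known for a strong reliance on mitochondrial respiration. Transcription factors known for acting at promoters of respiratory genes include the ETS factor GABP, NRF1, YY1 and the estrogen-related receptors (ERR).

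Of the 94 oxidative phosphorylation genes, 84 had a promoter region, meaning an accessible region within 1000 bp of an annotated transcription start site (TSS). This was 89.4% of them (Wilson 95% interval 81.5 to 94.1%), against 10760 of 21911 protein-coding genes, or 49.1%. Intervals of this kind treat genes as independent and cover counting error only. Of the 10 genes without one, 8 belong to complex IV, where 12 of 20 genes had a region. A region was found at 35 of 36 complex I subunit genes, at 8 of 8 complex I assembly factor genes, at 4 of 4 complex II genes, at 9 of 9 complex III genes and at 16 of 17 complex V genes. Ndufa4, Ndufa4l2 and the assembly factor Cox7a2l were counted with complex IV, and the associated factor Atp5s with complex V. In pooled cells, a larger share of cells with an open promoter and a more open promoter in each cell cannot be told apart.

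The labelled cell type was set beside marker genes. A promoter region was present at 5 of 6 regulatory T cell genes (Foxp3, Il2ra, Ctla4, Ikzf2 and Tigit, but not Tnfrsf18) and at 5 of 6 T cell genes, Cd4 being without one. It was present at 1 of 3 B cell genes (Pax5), 0 of 3 myeloid genes, 0 of 2 natural killer cell genes, 0 of 2 erythroid genes and 1 of 2 muscle genes (Actn2). Counting regions farther from any start site too, Tnfrsf18, Cd4 and the natural killer cell gene Klrd1 also had one, against 57.2% of all protein-coding genes with a promoter or distal region. The thresholded list held 48668 peaks in 26090 merged regions, and no deposited list held a peak on the mitochondrial chromosome. The mitochondrially encoded subunits were therefore not analysed here.

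The genes without a promoter region were split by the tissue paralogs. Among the symbols, 8 name forms known from restricted tissues or conditions: Cox4i2 (lung), Cox6a2, Cox7a1 and Cox8b (heart and skeletal muscle), Cox6b2 and Cox8c (testis), Cox7b2, and the hypoxia-inducible Ndufa4l2. Of these 8 genes, 1 had a promoter region, against 83 of the 86 other oxidative phosphorylation genes. Their broadly expressed partners Cox4i1, Cox6a1, Cox6b1, Cox7a2, Cox8a and Ndufa4 each had one, with signal values of 16.3, 15.4, 23.2, 21.7, 27.5 and 16.3. The signal value is the enrichment that the peak caller wrote for each peak, whose baseline the sources used here do not name. Within each of these families the broad form thus had the stronger promoter region, and in the Cox7b family neither form had a region.

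**Figure D1:**
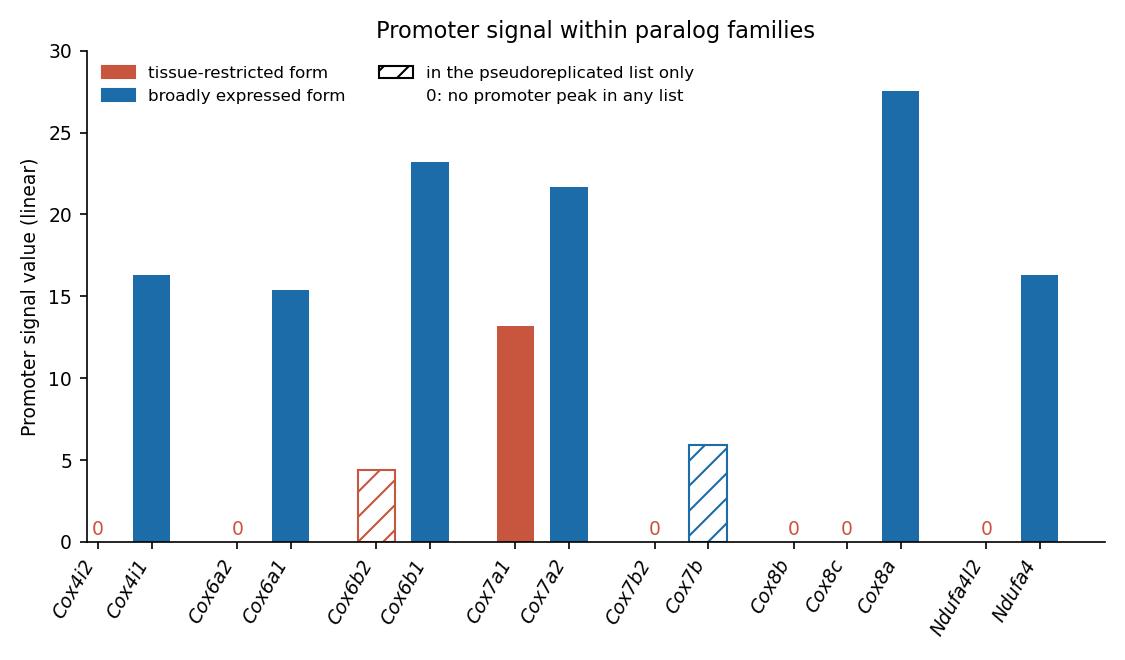
Signal value of the strongest promoter region (vertical axis, linear) for each gene of 7 paralog families, with the tissue-restricted forms in red left of the broadly expressed forms in blue. Filled bars are in the thresholded list, hatched bars only in the pseudoreplicated list, and 0 marks genes with no promoter peak in any list. Cox7a1 is the only restricted form with a filled bar, and Cox7b the only broad form without one.

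Cox7a1, the heart and muscle form of subunit VIIa, was the exception among the restricted forms. Its promoter region at chr7:30183892-30184408 was 517 bp wide, held 1 summit 53 bp upstream of the TSS and had a signal of 13.2. That was below the 21.7 of Cox7a2, the broad form, in a region 1072 bp wide. In the inputs of the reproducibility comparison the Cox7a1 peak had −log10 p values of 36.2 and 30.1. A further region with a signal of 8.84 lay 2611 bp upstream of Cox7a1.

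Of the other 7 restricted genes, Cox6b2 had a promoter peak only in the less strict pseudoreplicated list, where its signal was 4.39 and its irreproducible discovery rate (IDR) 0.388. The remaining 6 had no peak within 1000 bp of a TSS in any deposited list. The nearest region of the thresholded list began 1779 bp from a TSS of Ndufa4l2, 11313 bp from Cox4i2 and 355241 bp from Cox7b2. Base composition differed beside this. The CpG ratio compares observed with expected CpG dinucleotides, and its median over the window from 250 bases before to 50 after the gene start was 0.383 for the 8 restricted genes and 0.811 for the 86 others. Over all protein-coding genes it was 0.757 for those with a promoter region and 0.252 for those without one. The part of base composition in this split was not tested.

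Atp5l, Ndufb8 and Cox7b are broadly expressed genes without a region in the thresholded list. Atp5l encodes the g subunit of ATP synthase, Ndufb8 an accessory subunit of complex I, and Cox7b subunit VIIb of complex IV. Each had peaks at its TSS in the pseudoreplicated list. The strongest Ndufb8 peak lay 26 bp upstream of the TSS with a signal of 12.6, and its −log10 p was 33.8 in one input and 14.4 in the other (IDR 0.126). The Cox7b peak lay 3 bp upstream with a signal of 5.93, and its −log10 p values were 12.2 and 30.1 (IDR 0.172). The strongest Atp5l peak lay 26 bp downstream with a signal of 6.78, and its −log10 p values were 13.3 and 4.47 (IDR 0.388). All 3 peaks differed by more than 2-fold between the inputs, while 82 of the 84 listed genes stayed within that bound. The list was cut on agreement between these same inputs, so this contrast was partly fixed in advance. The Cox6b2 peak, also outside the list, had closer −log10 p values of 5.05 and 4.13. CpG ratios at these gene starts were 0.854 for Ndufb8, 0.660 for Atp5l and 0.369 for Cox7b.

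The IDR cut of the thresholded list was 0.05, so membership rests on both strength and repeatability between inputs. Ndufb10, an accessory subunit of complex I, was the weakest gene inside it, at a signal of 5.85 (IDR 0.0192). Its −log10 p values in the inputs were 15.8 and 22.3. With a promoter window of 2500 bp a stronger region counted for Ndufb10, with a signal of 15.6, and Cox6c was then the weakest. Cox6c, subunit VIc of complex IV, came next with a signal of 7.82 (IDR 0.0123) and input values of 10.1 and 16.6. Ndufb8 therefore lay outside the list with a higher signal than Ndufb10, Cox6c, Ndufa13 and Ndufaf3, which lay inside it. Atp5d, also inside it, was nearly equal to Ndufb8, with a signal of 12.55 against 12.558.

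**Figure D2:**
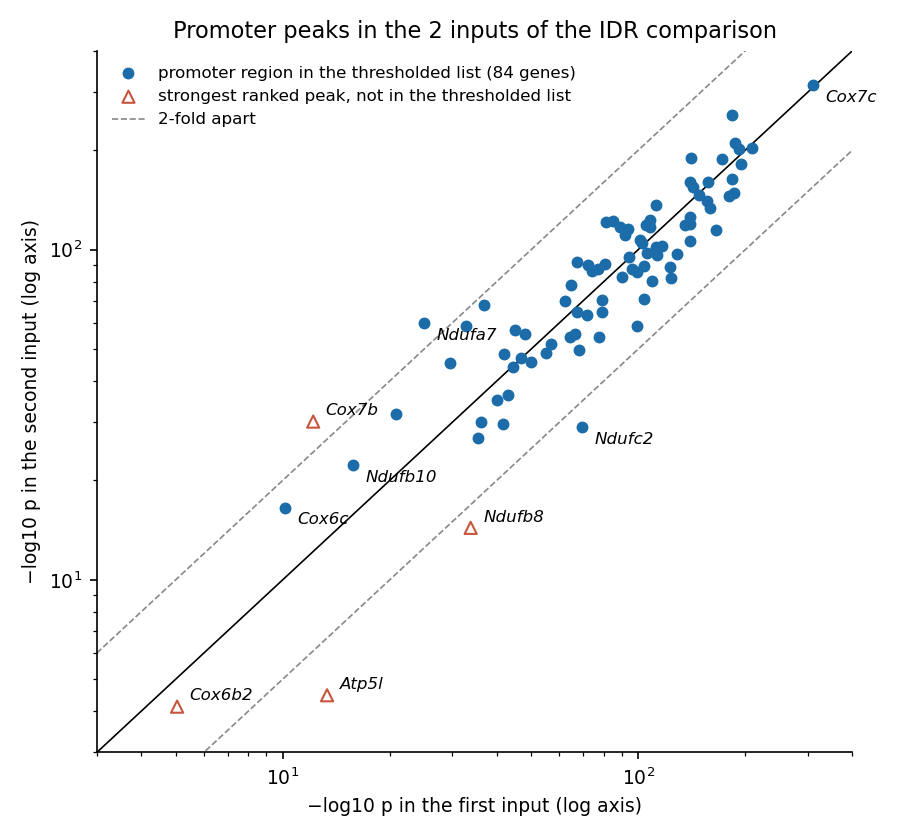
The −log10 p of each gene's strongest promoter peak in the first input (horizontal, log axis) and in the second input (vertical, log axis) of the reproducibility comparison. Circles are the 84 genes with a promoter region in the thresholded list and triangles the 4 genes whose promoter peaks missed it, of which Ndufb8, Cox7b and Atp5l lie outside the dashed lines that mark a 2-fold difference.

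The inputs of the IDR comparison gave the only measure of spread within the series, although the sources used here do not say what they are. The peaks compared here had all passed the IDR cut on agreement between these inputs, so the spread is that of selected peaks. At the strongest promoter peaks of the 84 genes the inputs differed by a median of 1.17-fold in −log10 p, against 1.18-fold at all 10760 genes with a promoter region. The widest differences were 2.40-fold for Ndufc2, followed by Ndufa7, against up to 4.90-fold over all genes. The inputs lay within 2-fold at 97.6% of the oxidative phosphorylation genes and at 98.6% of all genes. Their rank correlation was 0.901 across 84 genes and 0.941 across 10760 genes, which share the same libraries. The summit positions in the inputs were a median of 10.5 bp apart, against 10 bp over all genes.

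Promoter signal was somewhat above that of other genes and spread over a wide range. The median over the 84 strongest promoter regions was 18.8 (quartiles 16.4 and 23.01, range 5.85 to 27.99), against 16.6 over 10760 genes (quartiles 12.7 and 20.5). Of the 84 genes, 62 lay above the median of all genes, 30 above its upper quartile and 7 below its lower quartile. Medians by complex were 19.4 for complex I, 18.2 for its assembly factors, 20.3 for complex II, 18.2 for complex III, 18.3 for complex IV and 18.2 for complex V. These medians differed by far less than the genes within a complex did.

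**Figure D3:**
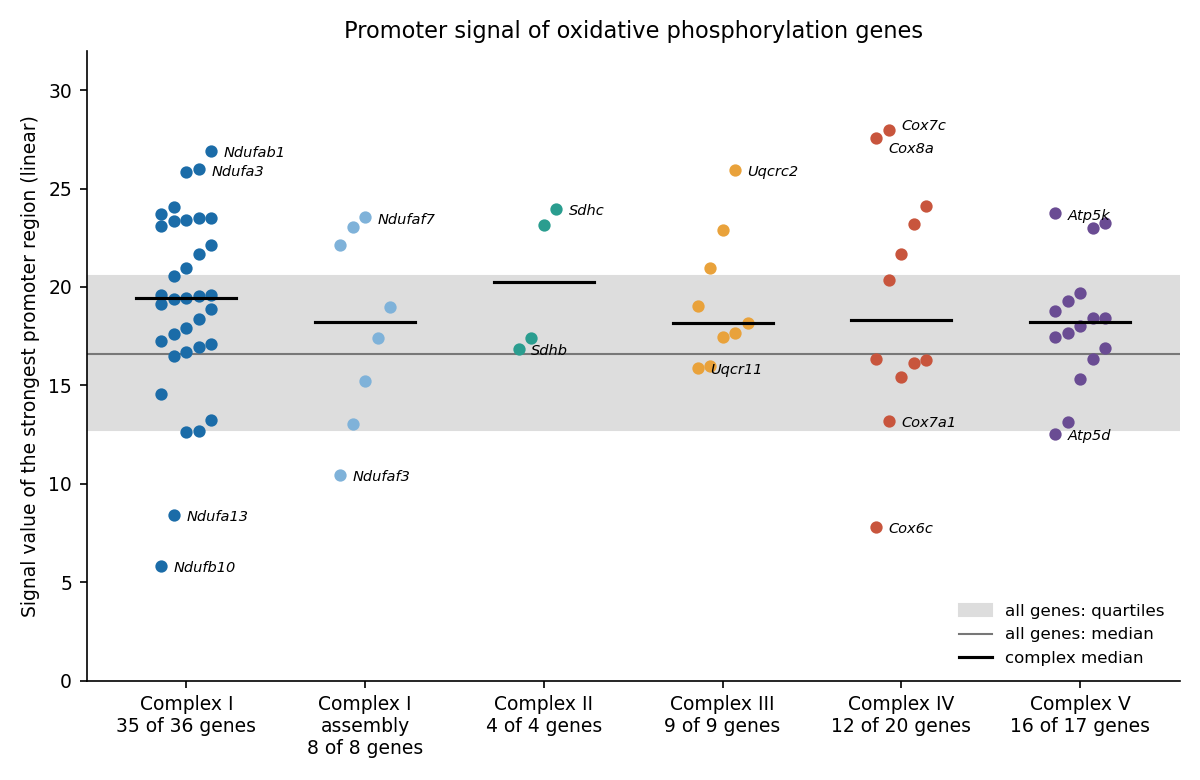
Signal value of the strongest promoter region (vertical axis, linear) for the 84 oxidative phosphorylation genes that have one, grouped by complex. Black bars are complex medians, and the grey line and band are the median of 16.6 and the quartiles of all 10760 protein-coding genes with a promoter region. All 6 medians lie above the grey line and inside the band.

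The strongest promoter was that of Cox7c, subunit VIIc of complex IV, whose region at chr13:86046258-86047027 reached 27.99, with a −log10 p of 643. It was first by both measures, and its inputs gave −log10 p values of 309 and 315. Cox8a, the broad form of subunit VIII, followed with a signal of 27.5. Next came Ndufab1 (26.9), the mitochondrial acyl carrier protein, then Ndufa3 (25.97) and Ndufb2 (25.8), accessory subunits of complex I, and Uqcrc2 (25.9), a core protein of complex III. Cox5b (24.1), a subunit of complex IV, and Ndufs8 (24.04), an iron-sulfur subunit of complex I, completed the 8 highest. Ranking by −log10 p kept only 2 of these 8, Cox7c and Uqcrc2. The rank correlation between signal and −log10 p was 0.656 across the 84 genes and 0.699 across all genes with a promoter region.

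At the low end, Ndufb10 and Cox6c were followed by Ndufa13 (8.41), a complex I subunit also known as GRIM-19, and by Ndufaf3 (10.5), a complex I assembly factor. Atp5d (12.6), the delta subunit of ATP synthase, and the complex I subunits Ndufs7 (12.6) and Ndufs1 (12.7) came next, and the assembly factor Ndufaf6 (13.02) was the last of the 8 lowest. Complex I, which made up 35 of the 84 genes, therefore held both some of the strongest and some of the weakest promoters by signal. By −log10 p, Cox6c was the lowest (24.6) and Ndufb10 the next (34.4). From the top of the 84 genes, the others ranked 79 (Ndufa13), 73 (Ndufs7), 69 (Ndufaf3), 61 (Ndufaf6), 54 (Atp5d) and 45 (Ndufs1). Ndufs1 carries iron-sulfur clusters on the same electron path as Ndufs8, and its signal was 12.7, against 24.04 for Ndufs8. The Atp5d value is that of the stronger of its 2 promoter regions, which also lay within 1000 bp of a start site of Cbarp. The weaker Atp5d region had a signal of 7.61, with a summit 23 bp upstream of another Atp5d TSS. The signal and rank of Atp5d carry that limit.

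Complex II takes electrons from succinate into the membrane. Sdhc, a membrane anchor, had a signal of 23.97, and Sdhd, the other anchor, had 23.1. Sdha, the flavoprotein that oxidizes succinate, had 17.4, and Sdhb, the iron-sulfur subunit, had 16.9. The anchors thus had the higher signals and the catalytic subunits the lower ones, all 4 above the median of all genes. This order depends on the promoter window, because with 2500 bp a stronger region inside the gene counts for Sdha and its signal becomes 24.1. Cyc1, the cytochrome c1 subunit of complex III, had 16.01, slightly below that median, in a region 1082 bp wide with 4 summits.

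Accessible regions were centred close to the start sites. The strongest summit lay within 100 bp of an own TSS at 75 of 84 genes, or 89.3%, against 66.9% of all genes with a promoter region. An own TSS lay inside the region at all 84 genes, against 91.6% of all genes with a promoter region. The median summit was 32 bp upstream of the nearest TSS, against 38 bp upstream over all genes, and the summit was upstream at 70 of 84 genes, or 83.3%, against 74.8%. At 4 genes the strongest summit was over 250 bp away. It lay 719 bp upstream of Ndufa11, 718 bp upstream of Ndufa13, 302 bp upstream of Uqcr10 and 263 bp upstream of Ndufa4. At each of these genes a weaker summit lay within 26 bp of the TSS, and each region also lay within 1000 bp of a start site of another gene. The 718 bp summit of Ndufa13 is thus not necessarily its own, and its promoter signal of 8.41 carries that limit.

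The regions were a median of 924 bp wide (range 338 to 1415), against 875 bp over all genes. Of the 84 regions, 77 held more than 1 summit, or 91.7%, against 78.6%. Most held 2 (31 regions) or 3 (26 regions), and Ndufa11, Sdhd and Uqcrc2 held 5 each. Neighbouring summits were a median of 287.5 bp apart, against 284 bp over all genes. Wide regions held more summits, with a rank correlation of 0.772 across the 84 genes, while signal and width were nearly unrelated (−0.194). The widest were those of Ndufa11 (1415 bp), Ndufv2 (1308 bp), Atp5j (1304 bp), Uqcrc2 (1291 bp) and Ndufb5 (1229 bp). The narrowest was that of Ndufb10, at 338 bp. Ndufa13 and Atp5d each had 2 promoter regions.

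**Figure D4:**
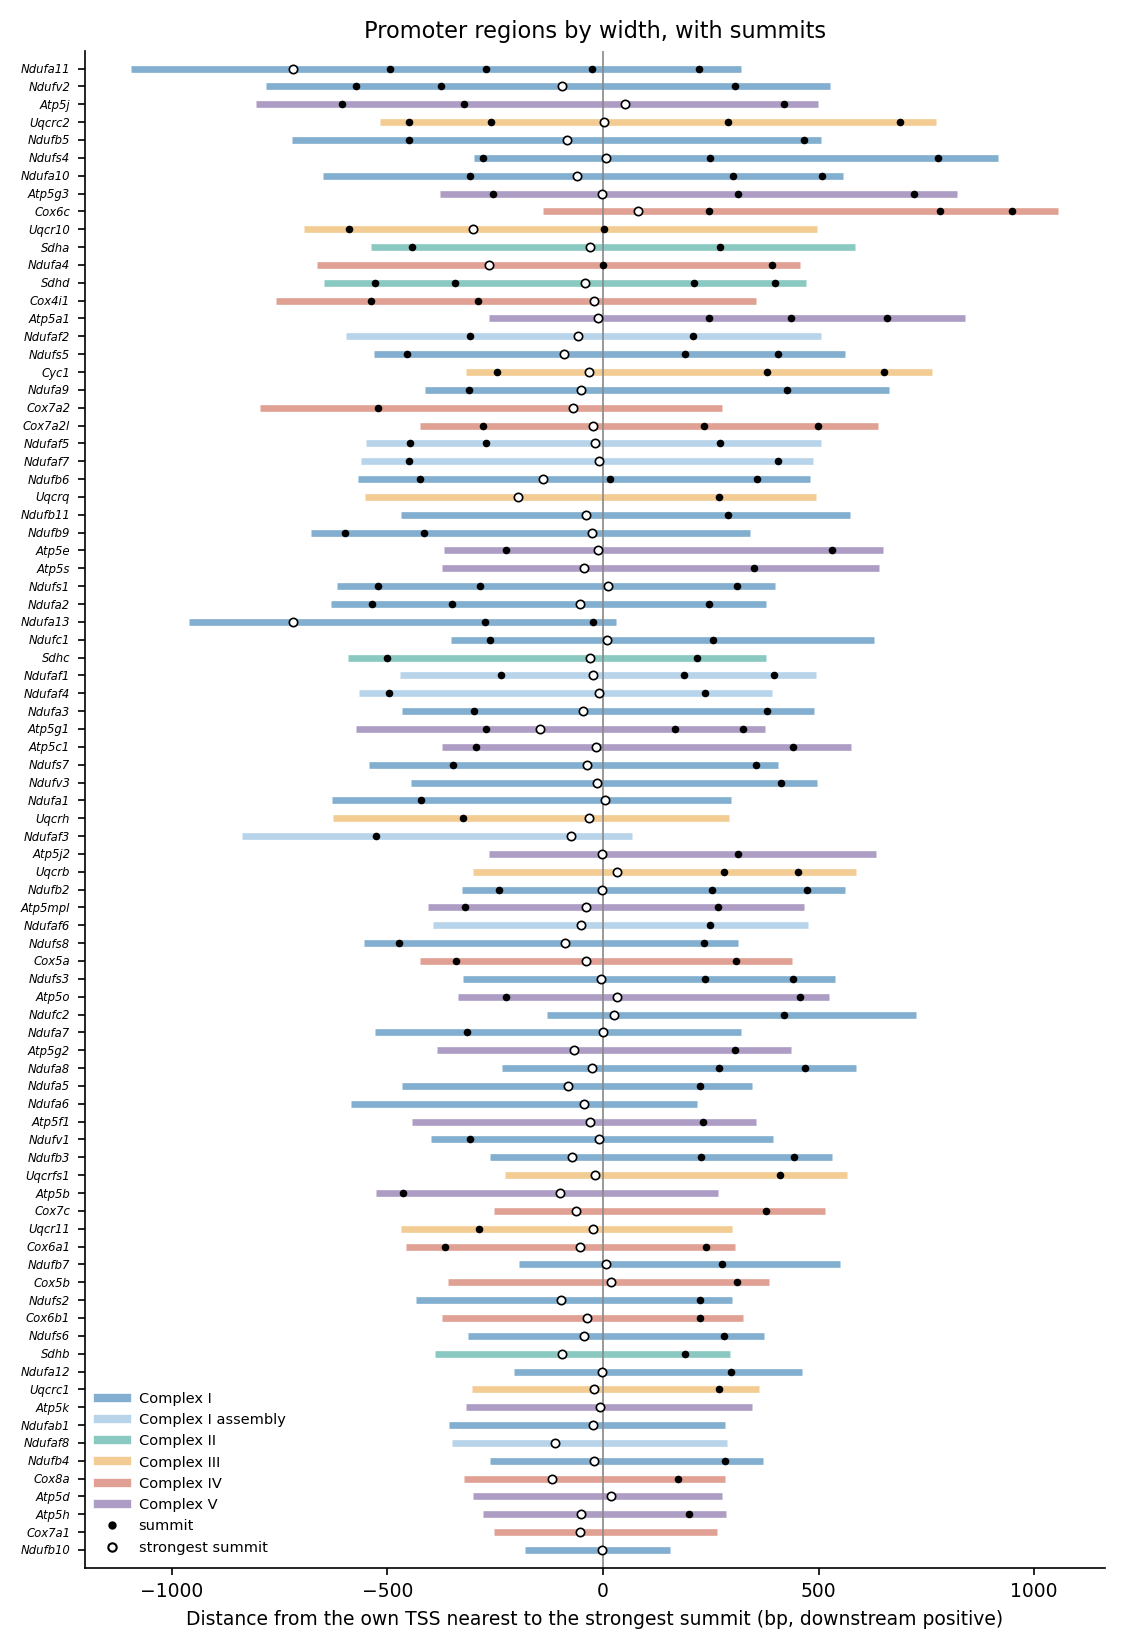
Each row is the strongest promoter region of an oxidative phosphorylation gene, drawn from its upstream to its downstream end in bp from the own TSS nearest to the strongest summit (horizontal axis, downstream positive) and coloured by complex. Rows run from the widest region (1415 bp) to the narrowest (338 bp), black dots are summits and open circles the strongest summit, which lies within 100 bp of the start site in 75 of 84 rows.

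Many of these promoters were shared with a neighbouring gene. The region lay within 1000 bp of a TSS of another protein-coding gene at 36 of 84 genes, or 42.9% (Wilson 95% interval 32.8 to 53.5%), against 23.8% of all genes with a promoter region. A head-to-head neighbour, on the opposite strand with its start upstream within 1000 bp, was present at 34 of 84 genes, or 40.5%, against 20.3%. Of the 36 shared regions, 33 had such a neighbour. A head-to-head gene was present at 14 of 35 complex I genes, 3 of 4 complex II genes, 4 of 8 assembly factor genes, 4 of 9 complex III genes, 2 of 12 complex IV genes and 7 of 16 complex V genes. Signal at a shared region cannot be divided between its genes.

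Several neighbours also serve mitochondria or translation. Sdhd shared its region with Timm8b, a small chaperone of mitochondrial protein import, and Ndufs6 shared its region with Mrpl36, a protein of the mitochondrial ribosome. Ndufs1 was paired with Eef1b2, a translation elongation factor, and Ndufa7 with Rps28, a protein of the cytosolic ribosome. Sdha was paired with Ccdc127. Atp5j, coupling factor 6 of ATP synthase, shared its region at chr16:84834506-84835809 with Gabpa, which encodes the DNA-binding subunit of GABP. Shared regions were a median of 1001 bp wide and the other 48 a median of 865.5 bp, and over all genes these medians were 935 and 855 bp. Their median signals were 19.1 and 18.6, against 17.4 and 16.3 over all genes.

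Motifs of the known regulators were counted in windows of 201 bp centred on the strongest promoter summit, on either strand. The letters searched were CCGGAAG for ETS factors, GCGCNTGCG for NRF1, AANATGGCG for YY1 and AAGGTCA for ERR. The NRF1 motif was present at 21 of 84 genes, or 25% (Wilson 95% interval 16.97 to 35.2%), against 11.6% of all genes with a promoter region. The ERR motif was present at 7 genes, or 8.33% (4.10 to 16.2%), against 1.32%. The YY1 motif was present at 9 genes, or 10.7% (5.74 to 19.1%), against 5.16%. The ETS motif was present at 19 genes, or 22.6% (14.99 to 32.6%), against 20.2%, so its share was near the background. A match shows only that the letters are there, and no binding was measured.

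Motifs of general promoter factors were less frequent or near the background. GGGCGG, the core of SP1 and KLF sites, was present at 40 of 84 genes, or 47.6%, against 60.7%. CCAAT, bound by NFY, was present at 25 genes, or 29.8%, against 36.1%. The order for CCAAT was the opposite in the RefSeq promoter windows described further on, at 42.9% against 41.0%. The cyclic AMP response element TGACGTCA was present at 5 genes, or 5.95%, against 3.97%, and TATAAA at 2 genes, or 2.38%, against 2.7%. The windows had a median GC content of 61.2%, against 63.7% over all genes. The part of base composition in these shares was not tested.

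**Figure D5:**
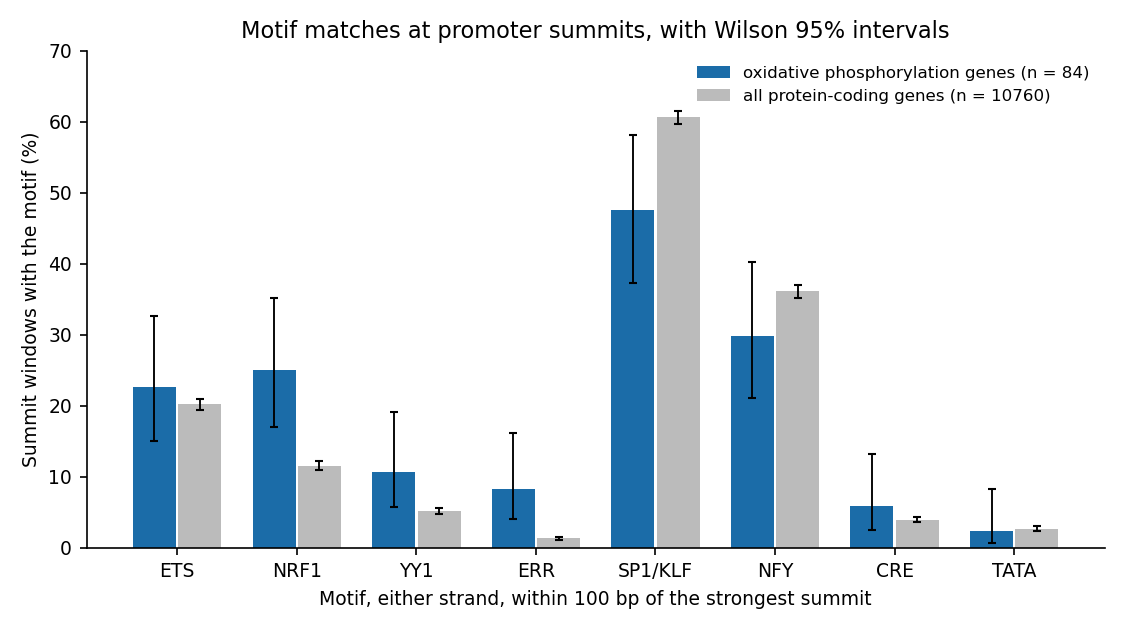
Share of 201 bp summit windows that hold each motif on either strand (vertical axis, percent), in blue for the 84 oxidative phosphorylation genes and in grey for all 10760 protein-coding genes with a promoter region. Error bars are Wilson 95% intervals. The blue bar exceeds the grey one most clearly for NRF1 (25 and 11.6%) and ERR (8.33 and 1.32%), and lies below it for SP1/KLF.

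By complex the counts are small, and differences between complexes were not tested. The YY1 motif was at 7 of 35 complex I genes, among them Ndufs7, and the others of the 9 genes were Uqcrb and Atp5j2. The ERR motif was at 4 of 16 complex V genes, namely Atp5e, Atp5g3, Atp5k and Atp5mpl, among 7 genes in all. The NRF1 motif was at 8 of 35 complex I genes, 1 of 8 assembly factor genes, 2 of 4 complex II genes (Sdha and Sdhd), 2 of 9 complex III genes, 2 of 12 complex IV genes and 6 of 16 complex V genes. Genes with and without a motif had like signal, with medians of 18.8 for those with the NRF1 motif and 19.004 for those without it. The genes named by motif were chosen after their sequences were seen.

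None of the 84 windows held all of the ETS, NRF1 and YY1 motifs, 6 held a pair of them, 37 held one, and 41 held none, or 48.8%. Over all genes 67.2% of windows held none. The share with a pair over all genes is not given, so the 6 windows are examples and not a trait of these genes. The sequences of the 6 windows with a pair are given here to show where the matches lie within the window. They come from the GRCm38.p6 assembly of mm10 and read 5′ to 3′ along the gene. Capitals mark ETS, NRF1 and ERR matches on either strand. Base 101 is the summit unless stated otherwise, and each stretch stops at 50 bases after the TSS, so that matches further downstream are counted but not printed.
Sdhd, chr9:50603762-50603954, minus strand: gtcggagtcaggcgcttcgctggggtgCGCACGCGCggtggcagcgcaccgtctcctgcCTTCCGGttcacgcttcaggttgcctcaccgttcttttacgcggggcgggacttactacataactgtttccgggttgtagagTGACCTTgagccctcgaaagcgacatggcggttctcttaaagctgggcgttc
Cox6a1, chr5:115348933-115349133, minus strand: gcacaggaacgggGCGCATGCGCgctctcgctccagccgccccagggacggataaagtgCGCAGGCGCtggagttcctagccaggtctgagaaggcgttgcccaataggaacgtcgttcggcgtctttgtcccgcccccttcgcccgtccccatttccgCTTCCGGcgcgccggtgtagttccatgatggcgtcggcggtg
Atp5h, chr11:115419912-115420112, minus strand: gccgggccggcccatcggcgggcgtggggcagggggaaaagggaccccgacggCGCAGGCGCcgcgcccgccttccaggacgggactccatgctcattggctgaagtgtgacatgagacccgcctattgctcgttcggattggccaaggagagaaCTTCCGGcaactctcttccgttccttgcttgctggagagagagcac
Uqcr11, chr10:80406780-80406954, minus strand: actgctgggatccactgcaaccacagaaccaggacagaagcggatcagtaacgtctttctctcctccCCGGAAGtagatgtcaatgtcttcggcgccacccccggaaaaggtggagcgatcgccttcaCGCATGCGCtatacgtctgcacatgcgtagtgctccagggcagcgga
Atp5k, chr5:108434398-108434555, minus strand: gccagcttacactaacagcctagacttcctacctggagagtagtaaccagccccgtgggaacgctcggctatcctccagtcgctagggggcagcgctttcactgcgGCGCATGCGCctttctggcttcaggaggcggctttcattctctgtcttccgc
Ndufs3, chr2:90904652-90904807, minus strand: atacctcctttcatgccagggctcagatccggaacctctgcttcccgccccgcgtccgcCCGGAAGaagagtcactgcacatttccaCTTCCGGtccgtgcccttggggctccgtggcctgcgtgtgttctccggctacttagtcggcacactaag

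In the Sdhd window an NRF1 match starts at base 28 and an ETS match at base 60. An ERR match starts at base 142 and spans the TSS at base 143. Cox6a1, the broad form of subunit VIa, had a palindromic NRF1 run that matches on both strands from base 14, a further NRF1 match from base 60, and an ETS match from base 160, just after its TSS at base 153. Atp5h and Uqcr11, subunits of complexes V and III, had 1 match of each kind. The NRF1 match comes first in Atp5h and the ETS match in Uqcr11. Atp5k, the e subunit of ATP synthase, had a palindromic NRF1 run that starts at base 107 and spans its TSS at base 108, with its ETS and ERR matches beyond the printed stretch. Ndufs3, an iron-sulfur subunit of complex I, had an ETS match on each strand, from bases 60 and 88, upstream of the TSS at base 106, and its YY1 match lay beyond the printed stretch. The TSS here is the annotated one nearest to the summit, and these placements depend on that choice. Counted from the RefSeq starts used further on, the Ndufs3 ETS matches lay at −24 and 4 and the Cox6a1 ETS match at −13. The Atp5k NRF1 run then lay at −46 and −45, and the Sdhd ERR match at 39.

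The next sequences are given for contrast, being the strongest promoter, the weakest, the restricted form with a region, and the promoter shared with the gene of an ETS factor. Capitals mark the same motifs. The Atp5j stretch ends upstream of its summit, which lay 52 bp after the TSS.
Cox7c, chr13:86046736-86046936, minus strand: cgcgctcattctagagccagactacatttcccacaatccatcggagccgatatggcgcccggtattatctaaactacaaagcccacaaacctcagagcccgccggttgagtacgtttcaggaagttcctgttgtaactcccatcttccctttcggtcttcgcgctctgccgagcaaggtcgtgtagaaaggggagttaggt
Ndufb10, chr17:24724370-24724521, minus strand: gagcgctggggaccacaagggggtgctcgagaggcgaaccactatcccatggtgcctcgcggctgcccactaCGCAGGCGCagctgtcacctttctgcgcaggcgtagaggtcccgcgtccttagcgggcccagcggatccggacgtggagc
Cox7a1, chr7:30183991-30184191, plus strand: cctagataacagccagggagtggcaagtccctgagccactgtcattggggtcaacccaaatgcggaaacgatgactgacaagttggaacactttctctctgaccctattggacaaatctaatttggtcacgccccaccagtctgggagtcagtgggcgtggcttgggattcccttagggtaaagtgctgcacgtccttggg
Atp5j, chr16:84834955-84835053, minus strand: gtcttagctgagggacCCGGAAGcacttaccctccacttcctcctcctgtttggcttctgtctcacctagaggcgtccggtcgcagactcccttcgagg

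The strongest window, that of Cox7c, held none of the ETS, NRF1, YY1 and ERR motifs, and neither did that of Cox7a1. The weakest by signal, that of Ndufb10, held an NRF1 match at bases 73 to 81, upstream of the summit. The Atp5j window held 2 ETS matches, of which 1 is printed.

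Motif positions were described further in RefSeq promoter windows, from 250 bases before to 50 after the RefSeq start, which were matched for 70 of the 94 genes. In these windows the NRF1 motif was present at 22 genes, or 31.4%, against 15.5% of 8667 genes, and the ERR motif at 7 genes, or 10%, against 2.76%. The YY1 motif was present at 10 genes, or 14.3%, against 6.17%, and at 8 of these 10 it lay downstream of the start, or 80%, against 61.1% of all genes with the motif. Its median position was 26.5 bases after the start, against 13 bases after it over all genes. The ETS motif was present at 17 genes, or 24.3%, against 21.1%, at a median of 15 bases upstream, against 25 bases upstream.

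Few distal regions were assigned to these genes. Regions more than 1000 bp away from any protein-coding TSS were called distal, and each was assigned to the nearest TSS up to 100 kb away. There were 27 such regions at 20 of 94 genes, or 21.3%, against 27.6% of all protein-coding genes. Among genes with a promoter region, 17 of 84, or 20.2% (Wilson 95% interval 13.04 to 30.04%), had a distal region, against 39.7%. The mean was 0.287 distal regions per gene, against 0.610 over all genes. The count follows the list: there were 65 regions (0.691 per gene, against 1.41 over all genes) in the pseudoreplicated list and 16 (0.170, against 0.412) in the stricter list with an IDR of 0.01 or below. With the start sites of all annotated genes there were 16 (0.170, against 0.365). None of the 9 complex III genes had one. The genes also lay closer to their neighbours, with a median of 3974.5 bp to the nearest TSS of another protein-coding gene, against 10272 bp for all genes with a promoter region. The part of this spacing in the distal counts was not tested.

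The most distal regions, 3 each, were at Cox4i2 and Ndufaf6. Those of Cox4i2, the lung form of subunit IV, lay 11604, 20480 and 34623 bp downstream of its TSS with signals of 12.98, 16.2 and 12.94. The farthest of them lay in the body of Bcl2l1, which encodes the survival protein Bcl-xL, and the next nearest gene of the other pair was Id1. Cox4i2 itself had no promoter region, and the assignment is by distance alone. Ndufaf6 had regions 1481, 8690 and 12994 bp upstream with signals of 4.80, 7.99 and 12.3. Ndufa10, Ndufa9 and Ndufb6 had 2 each, and the remaining 15 genes had 1.

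Of the 27 distal regions, 16 were intergenic, 8 lay in the body of the gene they were assigned to and 3 in the body of another gene. Their median distance was 11604 bp and their median signal 12.6, the same as the 12.6 of all assigned distal regions. At genes with a promoter region, 4 of 22 distal regions exceeded it in signal. Shares over all genes are not given for this count or for the locations, so both describe these regions only. The strongest was at Sdha, with 24.1 at chr13:74340951-74341516, 1497 bp upstream of the nearest annotated Sdha TSS and inside the gene body, against 17.4 at the Sdha promoter region. A region 10050 bp upstream of Cox7a2l, a supercomplex assembly factor, had 22.4, against 20.4 at its promoter.

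Other genes of the respiratory chain, chosen by function, were set beside these. Of 48 assembly factors, electron carriers, regulators and organellar transcription factors, 46 had a promoter region, against 49.1% of all protein-coding genes. The median signal of these regions was 18.6, and 29 distal regions were assigned to the 48 genes. The exceptions were Cyct, the testis form of cytochrome c, and Ppargc1a, which encodes the coactivator PGC-1α. Cycs, the somatic cytochrome c gene, had a signal of 21.1 and 4 distal regions. Among genes for factors that bind the ETS, NRF1, YY1 and ERR motifs, or for subunits of such factors, 5 were looked up. Each had a promoter region, with signals of 18.4 for Gabpa, 9.52 for Gabpb1, 10.5 for Nrf1, 14.6 for Yy1 and 19.2 for Esrra. The Gabpa value is that of the region shared with Atp5j.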

How the data were processed

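ATAC-seq peaks of 2 pooled technical libraries were analysed. Per the file headers in the README texts, the deposited pseudoreplicated, IDR ranked and IDR thresholded lists derive from 1 alignment to mm10. The aligner, peak caller, read filters and any shift of read ends for the transposase are not stated in these sources. Also not stated are the depth and how reads that match copies elsewhere were handled. The signal value, the score (up to 1000), the −log10 p and −log10 q, and the −log10 IDR are the authors' own deposited values per peak. The ranked list also holds the authors' −log10 p of each peak in 2 inputs whose origin is not given.

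Overlapping rows (1 bp or more) were joined into regions, described by the signal and summit of the strongest row. Genes and TSSs of all transcripts came from GENCODE M21, and sequence from GRCm38.p6. All 658 RefSeq windows that were checked matched that genome. Genes were named by a rule: those without a promoter region, the 8 strongest and 8 weakest, the 8 with the most distal regions, the 5 widest, complex II, Cyc1, the paralog families, genes with 2 promoter regions and up to 6 shared promoters. Members and lists were chosen with earlier results of these data known. With 1 group and no value per library, no test between groups was made. On simulated data, 400 of 400 promoter calls, 400 of 400 distal counts and 200 of 200 planted motifs were recovered. Alternatives covered the lists, promoter windows of 500 or 2500 bp, a single TSS for each gene, assignment limits of 50 or 20 kb, other motif letters, motif windows reaching 50 bp to each side of the summit and RefSeq promoter windows. Python 3.11.15, numpy 2.4.6, pandas 2.3.3, pysam 0.24.0, samtools 1.23.1 and matplotlib 3.10.9 were used.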

Additional observations from a re-analysis of the deposited data

How the results depend on the processing

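Leaving out each library in turn could not be done, because the lists pool both. No paired analysis was possible because there is 1 group and no value per library. The share of oxidative phosphorylation genes with a promoter region stayed within its 95% interval in all 6 alternatives, between 85.1% in the stricter list (IDR of 0.01 or below, against 45.5% of all genes) and 93.6% in the pseudoreplicated list (against 55.7% of all genes). The stricter list lost Cox6c, Ndufa7, Ndufb10 and Ndufc2, the pseudoreplicated list added Atp5l, Cox6b2, Cox7b and Ndufb8, and a window of 2500 bp added Atp5l and Ndufa4l2. Median signal (18.4 to 18.9), median width (901.5 to 934.5 bp) and the share with more than 1 summit (88.4 to 92.6%) also stayed within their intervals. The count of 27 distal regions became 65 in the pseudoreplicated list, 16 in the stricter list and 16 when the TSSs of all annotated genes were used. Over all 230 promoter peaks the median absolute log2 ratio of the inputs was 0.38, against 0.22 at the strongest peaks.

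Motif shares follow the letters and the window. Within 50 bp of the summit the shares were 10.7% for ETS (13.9% of all genes), 15.5% for NRF1 (6.19%) and 3.57% for YY1 (1.91%). With the stricter ETS letters ACCGGAAGT the share was 1.19% (2.54% of all genes), with the looser NRF1 letters GCNTGCG it was 41.7% (26.0%), and with the looser YY1 letters ATGGCG it was 23.8% (14.9%). The ETS share was thus above that of all genes in 201 bp windows and below it within 50 bp and with the stricter letters. The limits are those of 1 pooled biological sample of unknown depth, so a promoter outside the list is not shown to be closed.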
